A study of Mus musculus with 16 samples.

Results

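The comparison described here is that of spontaneously recovered with non-recovered mice in the ipsilesional primary motor cortex (iM1), the motor cortex on the side of a stroke. Its members are all 263 genes of the deposited iM1 table, of 661 genes listed for either hemisphere, measured in 8 of the 16 libraries of the series. Messenger RNA was sequenced from C57Bl6 mice that had all had a stroke and had been scored on a horizontal rotating beam, a test of balance and stepping. The recovered group holds animals 6, 23 and 28 (n = 3), and the non-recovered group holds animals 17, 19, 20, 21 and 29 (n = 5). There is no mouse without a stroke in this comparison, so both groups share the lesion. The labels state neither age nor sex, nor how the stroke was made or how long before sampling. The labels name 8 separate animals, with 1 library each. Animal numbers follow the iM1 titles. The labels of the other hemisphere put the description codes of animals 6 and 23 the other way round, so which of these 2 numbers belongs to which library is in doubt; both are recovered, and the groups are not touched by it.

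The primary motor cortex sends the descending axons that drive skilled limb movement. Tissue that survives beside an infarct is a candidate for taking over lost function. Such tissue is a mixture. Pyramidal neurons, fast-spiking interneurons, astrocytes, oligodendrocytes and vessels lie under the leptomeninges, and microglia and invading macrophages clear debris near the lesion. Signals of the bone morphogenetic protein (BMP), transforming growth factor beta (TGF-beta) and Wnt families act on glia, fibroblasts and vessels after injury. In bulk tissue, fewer cells of a type and less RNA per cell cannot be told apart.

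Levels are log2 CPM, the log2 of counts per 1000000 reads. The totals by which the libraries were scaled, worked back from the values, averaged 23.3 ± 0.928 M reads (SD, n = 3) for the recovered group and 23.8 ± 2.95 M (SD, n = 5) for the non-recovered one (exact permutation p = 0.857, 2-sided). The listed genes took up 2.40 to 2.61% of each total. They had a median of 614 reads per library, 24 genes had a mean under 50 reads and 104 a mean over 1000. The genes were listed by the authors from these same libraries by a rule not stated with the data, so no count over them is independent evidence of a difference with recovery. Values below are always in the order of animals 6, 23 and 28 and then 17, 19, 20, 21 and 29. A log2 fold change is the recovered minus the non-recovered mean, followed by the SE that limma estimated for it, and adjusted p-values are Benjamini-Hochberg values over the 263 genes.

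In recovered mice 131 of the listed genes stood higher and 132 lower, nearly all by small amounts. The median absolute log2 fold change was 0.26, and 134 genes differed by less than 1.2-fold. The 2 genes that reached 2-fold were Gpnmb, a glycoprotein of lipid-laden macrophages, and Aox3, an aldehyde oxidase. At an adjusted limma p under 0.05, 3 genes (1.14%) passed and all 3 fell, while 0% passed among the higher genes, whose smallest adjusted p was 0.0532. At an adjusted limma p under 0.1 the count was 248 genes, 120 of them higher, so the 3 calls do not set the directions apart. At an unadjusted limma p under 0.05 the count was 196 genes (74.5%), 98 of them higher and 98 lower (37.3% each). It was lower whichever animal was left out, with 109 without animal 23 and 123 without animal 6. After each library was centred on its median over the listed genes, the same test gave 34 higher and 124 lower. The listed genes are a selection, so that median is not a neutral reference. All recovered libraries lay outside the range of all non-recovered ones for 111 genes (42.2%), 55 higher (20.9%) and 56 lower (21.3%), and each of these 111 also passed the unadjusted p. The gap between the groups was small in these genes, with a median of 0.0486 and a maximum of 0.29 on the log2 scale.

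**Figure D1:**
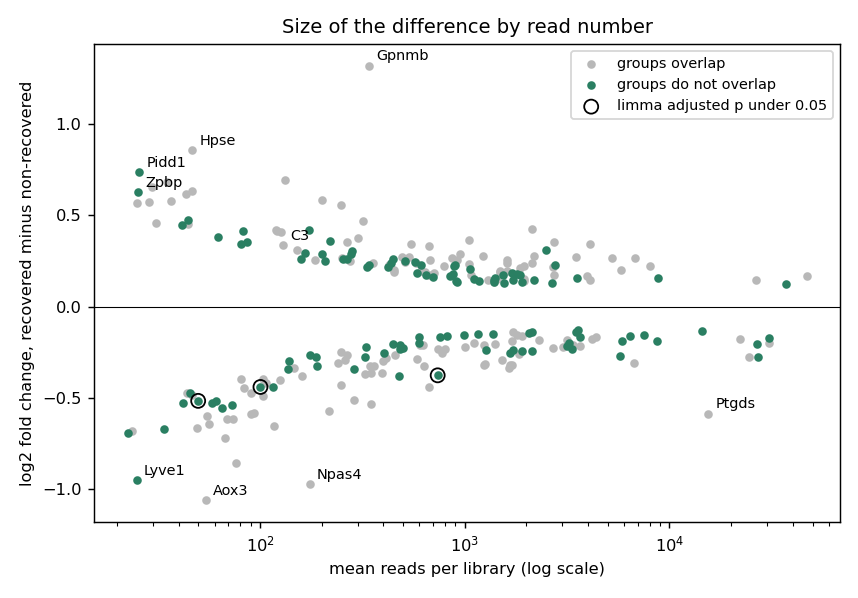
Log2 fold change of the 263 listed genes (vertical axis, recovered minus non-recovered mean log2 CPM) against mean reads per library (horizontal log axis). Green points are genes whose groups do not overlap, grey points are the others, and the 3 open circles mark genes with a limma adjusted p under 0.05; the smallest absolute difference is 0.126, and most of the widest differences are those of genes with few reads, with Ptgds on the right as an exception.

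The gene with the smallest p was Jsrp1, which encodes a protein of the junctional sarcoplasmic reticulum of muscle (mm10 chromosome 10, 80808496 to 80813498, minus strand). Its levels were 1.75, 1.89 and 1.82 in recovered and 2.32, 2.21, 2.18, 2.27 and 2.33 in non-recovered animals. The groups did not overlap, and animal 6 was the lowest. Jsrp1 fell to 0.738-fold (log2 fold change -0.44 ± 0.061, SE, limma adjusted p = 0.0224), on 77 to 129 reads per library. Cpxm2, a secreted carboxypeptidase-like protein (chromosome 7, 132032687 to 132154739, minus strand), had 0.96, 0.70 and 0.69 against 1.33, 1.12, 1.30, 1.36 and 1.37. Its groups did not overlap either, with animal 19 nearest to the recovered ones. Cpxm2 fell to 0.700-fold (-0.52 ± 0.087, adjusted p = 0.0416), on 34 to 65 reads. Ankrd6, an ankyrin repeat protein that acts in Wnt signalling (chromosome 4, 32804035 to 32950841, minus strand), had 4.65, 4.68 and 4.84 against 5.04, 5.15, 5.02, 5.15 and 5.14. All 3 recovered animals lay below all non-recovered ones, and Ankrd6 fell to 0.771-fold (-0.38 ± 0.067, adjusted p = 0.0416), on 592 to 915 reads.

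These 3 calls rest on a narrow margin. With voom weights on the reads all 3 had an adjusted p of 0.0506, and without animal 17, 21 or 23 no gene passed. With the prefix of the description code as a term, a fit chosen after seeing the data in which animals 28 and 29 alone carry the comparison, the count was 0, with 31 genes at an unadjusted p under 0.05.

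Next to these by p among lower genes were Lonrf3 and Bub1b, whose groups also did not overlap. Lonrf3, a RING finger protein of the X chromosome, had 2.72, 2.89 and 2.83 against 3.07, 3.10, 3.24, 3.15 and 3.12 (-0.32 ± 0.063, limma adjusted p = 0.0511). Bub1b, the BubR1 kinase of the mitotic checkpoint, had 0.39, 0.00 and 0.04 against 0.58, 0.68, 0.81, 1.06 and 0.92 (-0.67 ± 0.13, adjusted p = 0.0511), on 21 to 49 reads. Animal 6 was the recovered library nearest the non-recovered ones for Bub1b. The other listed gene of cell division, the condensin subunit gene Ncaph, went the other way, with 0.89, 0.27 and 0.32 against 0.05, -0.12, -0.52, 0.39 and -0.17 (0.57 ± 0.21). Its groups overlapped through animal 21, and the value dropped to 0.37 without animal 6.

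Among higher genes the smallest p-values belonged to Zpbp, Pidd1, Cyp2s1, Plxdc1 and Nefh, each with an adjusted limma p of 0.0532. Pidd1, a death-domain protein induced by p53 (chromosome 7, 141438113 to 141444025, minus strand), had 0.68, 0.81 and 0.42 against -0.45, 0.04, -0.35, 0.09 and 0.17 (0.74 ± 0.17), on 16 to 40 reads. Zpbp, known as a zona pellucida binding protein of sperm, had 0.43, 0.70 and 0.56 against -0.38, -0.12, 0.01, -0.09 and 0.26 (0.63 ± 0.14), on 16 to 37 reads. These are low counts, and animals 28 and 29 were the closest pair across the groups for Pidd1, as animals 6 and 29 were for Zpbp. Cyp2s1, a cytochrome P450 enzyme, had 2.16, 2.17 and 2.01 against 1.68, 1.91, 1.62, 1.79 and 1.81 (0.35 ± 0.079). Plxdc1, a plexin-domain membrane protein of vessels, had 5.36, 5.37 and 5.42 against 5.14, 5.12, 5.15, 5.27 and 5.10 (0.23 ± 0.056). The recovered libraries differed little for Plxdc1, and animal 21 stood above the other non-recovered ones.

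**Figure D2:**
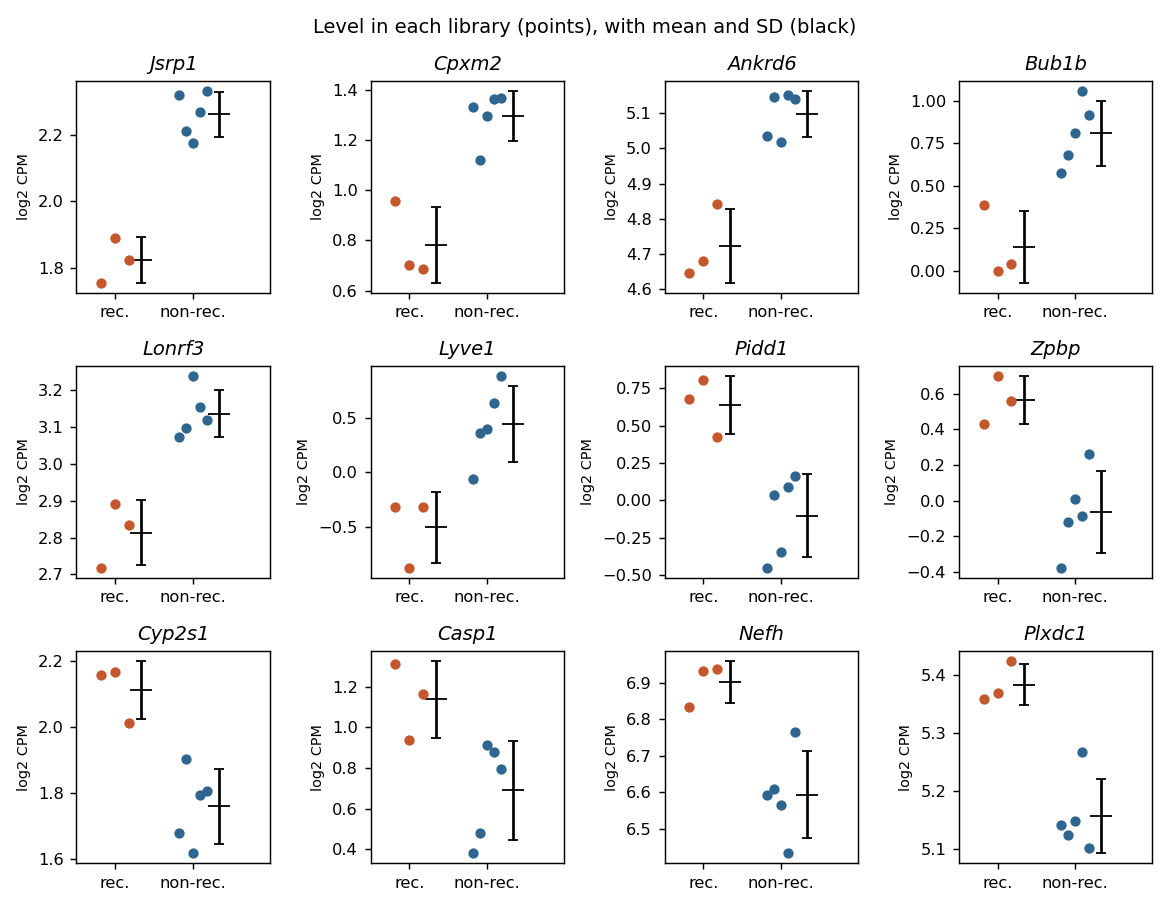
Log2 CPM of 12 genes in each recovered (orange, n = 3) and non-recovered (blue, n = 5) library, spread sideways only so that points can be seen, with the group mean and SD in black; each panel has its own axis, which does not start at 0. In all 12 panels the 3 recovered points lie outside the range of the 5 non-recovered ones, as for Jsrp1 with 1.75 to 1.89 against 2.18 to 2.33.

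Further genes without overlap were ranked by the size of their difference. Lower by the largest amount was Lyve1, which binds hyaluronan on lymphatic endothelium and on macrophages of the brain borders (-0.95 ± 0.22, limma adjusted p = 0.0532). Krt73, a keratin of the hair follicle sheath, had -0.18, -0.34 and -0.79 against 0.54, 0.31, -0.12, 0.39 and 0.17 (-0.69 ± 0.18). Krt73 had 11 to 36 reads per library, and animals 6 and 20 nearly met. Arhgap6, a GTPase activating protein (-0.55 ± 0.13), Mapk12, a p38 kinase known from muscle (-0.54 ± 0.13), and Nrtn, the neurotrophic ligand neurturin (-0.53 ± 0.12), followed. The DNA repair gene Rdm1 stood at -0.53 ± 0.13 and the xylosyltransferase gene Gxylt2 at -0.52 ± 0.16. For Gxylt2 the low value of animal 23, 0.66 against 1.25 or more in the other libraries, carried much of the difference, which was -0.32 without it. For Nrtn the levels were 0.52, 0.42 and 0.69 against 0.99, 1.19, 1.13, 1.27 and 0.76, so that animals 28 and 29 were the nearest across the groups.

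On the higher side without overlap, the Bardet-Biedl chaperonin gene Bbs12 had 1.10, 1.17 and 1.43 against 1.07, 0.53, 0.39, 0.91 and 0.89 (0.47 ± 0.16), with animals 6 and 17 almost level. Mybpc1, a myosin binding protein of slow muscle, had 3.05, 2.99 and 3.39 against 2.56 to 2.96 (0.42 ± 0.12). Lrrc38, an auxiliary subunit of large-conductance potassium channels, had 1.94 to 2.28 against 1.87, 1.54, 1.32, 1.78 and 1.76 (0.42 ± 0.14). In each of the last pair animal 28 was the highest library. Xkr7 of the XK family stood at 0.38 ± 0.10 and Pcdha12, a clustered protocadherin, at 0.36 ± 0.12. The other listed protocadherin, Pcdha3, stood at 0.45 ± 0.17 with overlap. Both values are uncertain, since genes of this cluster share their last exons.

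The libraries were placed by the principal components of the gene-centred table. The first component held 49.3% of the variance and set animal 6 apart at 8.86, against -2.47 to 0.79 for the other 7 libraries. Genes with the largest weights on it were C3, Gpnmb, Tnfaip2, Hk3, Neat1 and Sp110. The second component held 27.7% and placed animals 23 and 28 at -4.69 and -3.54. Animals 17, 20, 21 and 29 lay at 1.77 to 3.03 on it, while the non-recovered animal 19 lay at -1.11 and the recovered animal 6 at 0.31. C3, Aox3, Alx4, Npas4, Tfap2b and Lyve1 weighed toward the non-recovered side of that axis, and Pidd1 and Zpbp toward animals 23 and 28.

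**Figure D3:**
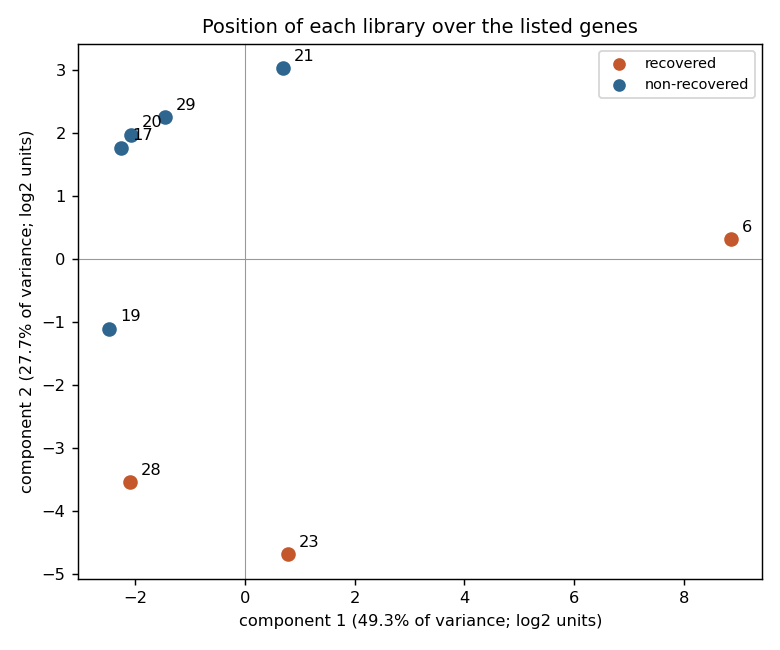
Position of the 8 libraries on the first (horizontal, 49.3% of variance) and second (vertical, 27.7%) principal components of log2 CPM over the 263 genes, with animal numbers beside the points (orange recovered, blue non-recovered). Animal 6 stands alone on the right at 8.86, and animals 23 and 28 lie lowest on the second component.

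The median absolute difference between 2 libraries over the listed genes was 0.120 to 0.173 within the recovered group, 0.114 to 0.145 within the non-recovered group and 0.195 to 0.306 across groups. Because the authors listed these genes from the same libraries, the wider difference across groups is no independent evidence. Animals 28 and 17 formed the closest pair across the groups. Of the 131 higher genes, 45 had their highest value in animal 6, 41 in animal 23 and 45 in animal 28. Of the 132 lower genes, 64 had their lowest value in animal 6, 43 in animal 23, 21 in animal 28 and 4 in animal 19. On average over the lower genes, animal 28 deviated by -0.12 from the gene means, against -0.24 for animal 6 and -0.28 for animal 23. Leaving out animal 6 shrank the log2 fold change by more than 1.5 times, or reversed it, in 41 genes. The same count was 19 for animal 23, 10 for animal 28 and 1 each for animals 17 and 19.

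**Figure D4:**
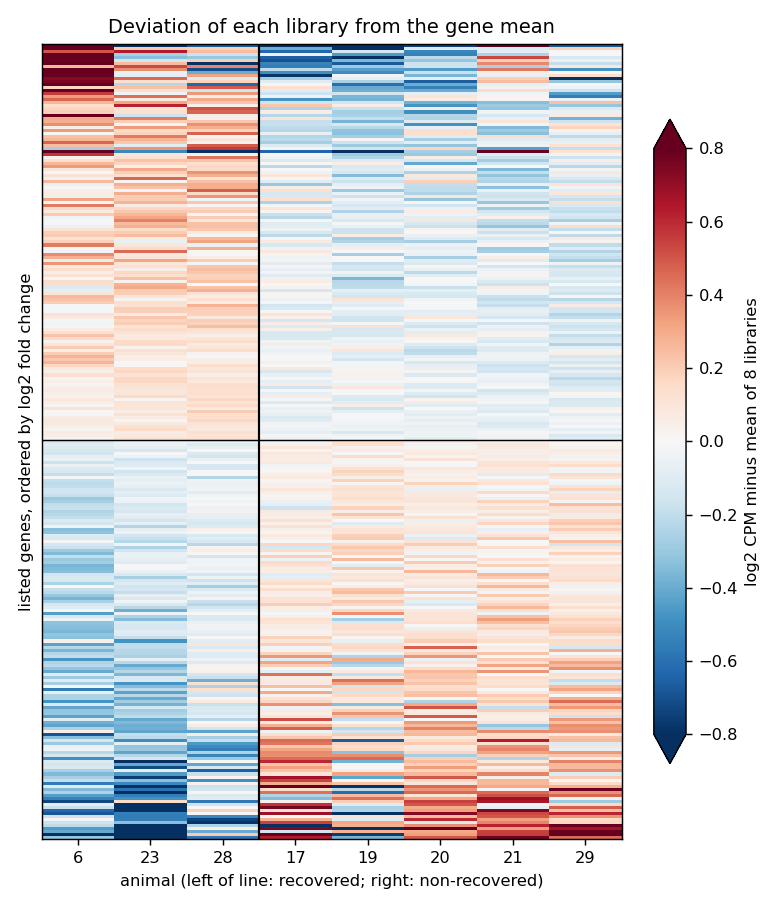
Log2 CPM of each library minus the mean of the 8 libraries, for the 263 listed genes ordered by log2 fold change (vertical) and the 8 animals (horizontal; the thick line parts recovered from non-recovered, the thin line higher from lower genes). The colour scale ends at 0.8 in either direction; dark cells at the top left are genes that stand out in animal 6, and those at the foot of the column of animal 23 are genes that are lowest there.

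Groups of genes are described next, by how many of each list were in the table. The lists were chosen with earlier results of these data known. Counts of their members in either direction are therefore no independent evidence. Counts of members with a limma p under 0.05 stand against the 74.5% of all listed genes, and counts of members whose groups do not overlap against 42.2%, so that a list near these shares is not set apart by them. Markers of myeloid cells were high in 1 recovered library. Of 41 genes on a list of microglia, myeloid and complement genes, 4 were listed, all with a positive difference, but only Casp1 had a limma p under 0.05 or groups that did not overlap. Gpnmb had 6.50, 1.14 and 1.59 against 1.37, 1.12, 1.51, 3.19 and 1.59. C3, the central complement component, had 5.12, 0.00 and -2.95 against -0.12, -0.72, 0.24, 1.91 and 0.63, which came from 1 read in animal 28 and 824 in animal 6. Itgam, the CD11b integrin chain, had 4.47, 2.86 and 2.52 against 2.42, 2.41, 2.74, 2.98 and 2.92. In all 3 genes animal 6 was the highest of the 8 libraries, and animals 23 and 28 lay within the non-recovered range, except that animal 28 lay below it for C3. The summed level of the 4 genes was 150 CPM in animal 6, 12.4 in animal 23 and 11.1 in animal 28, against 9.49 to 22.6 CPM in non-recovered animals. Their differences were 1.32 ± 1.2 for Gpnmb, 0.34 ± 1.6 for C3 and 0.59 ± 0.41 for Itgam, and without animal 6 they were -0.39, -1.86 and -0.0067. Casp1, the caspase that matures interleukin 1 beta, was the exception, with 1.31, 0.94 and 1.16 against 0.38, 0.48, 0.91, 0.88 and 0.80 (0.45 ± 0.15, adjusted p = 0.0600).

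Other genes stood out in the same library. Tnfaip2, induced by tumour necrosis factor, had 2.26 in animal 6 and -0.49 to 0.88 in the others. Neat1, the nuclear paraspeckle RNA, had 5.03 against 2.51 to 3.15, and Col15a1, a basement membrane collagen, had 4.02 against 1.74 to 2.28. Without animal 6 the differences were -0.07 for Tnfaip2, -0.22 for Neat1 and 0.04 for Col15a1, so that none of the 3 kept its size. Hpse, the heparan sulphate cleaving heparanase, had 2.12, 1.09 and 1.07 against 0.50, -0.29, 0.77, 0.78 and 1.08 (0.86 ± 0.35, limma adjusted p = 0.0660; 0.51 without animal 6). Animal 29 lay between the recovered libraries for Hpse. The description code of animal 6 begins with SP2 and those of the other 7 iM1 libraries with SP4. The labels do not say what the code stands for, so the animal and its code cannot be told apart. No gene of the lists of peripheral leukocytes, of endothelium and mural cells, of choroid plexus or of haemoglobin was in the table, and their levels were not analysed here.

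Meningeal and border-cell genes that were listed were all lower in recovered mice. Of 38 genes chosen for these cells 9 were listed, all 9 were lower and 5 had a limma p under 0.05. The median log2 fold change was -0.58 (all listed genes -0.13), or -0.35 without animal 23. Ptgds, the prostaglandin D synthase secreted by leptomeninges, had 9.01, 8.40 and 9.27 against 9.70, 8.65, 9.71, 9.71 and 9.62 (-0.58 ± 0.29). Aox3 had 0.79, 0.00 and 0.52 against 1.73, 0.73, 1.60, 1.88 and 1.55 (-1.06 ± 0.28, adjusted p = 0.0532). Lyve1 had -0.32, -0.88 and -0.32 against -0.06, 0.37, 0.39, 0.63 and 0.89, on 11 to 46 reads. Of the 9 genes only Lyve1 had groups that did not overlap, and in Ptgds and Aox3 the overlap came from animal 19, which lay with the recovered animals. Stra6, which carries retinol across the cell membrane (-0.65 ± 0.27), and Tbx18, a transcription factor of meninges and mural cells (-0.62 ± 0.23), also had an unadjusted p under 0.05. The organic anion transporter Slc22a6 (-0.57 ± 0.34), the proline transporter Slc6a20a (-0.53 ± 0.26) and the transcription factor Zic1 (-0.51 ± 0.26) did not.

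The meningeal level differed widely among libraries of 1 group. Over the 9 genes, libraries deviated on average by -0.23, -0.83 and -0.17 in animals 6, 23 and 28, and by 0.41, -0.31, 0.39, 0.37 and 0.36 in animals 17, 19, 20, 21 and 29. Animal 23 had the lowest value in 7 of the 9. The summed level was mostly that of Ptgds, which had a mean of 647 CPM over all libraries. This sum was 372 to 671 CPM in recovered and 445 to 912 CPM in non-recovered animals, and so the ranges overlapped. Alx4 and Tfap2b, transcription factors on no list here, were also low in animal 19: Alx4 had 1.08, 0.32 and 1.59 against 2.27, 0.53, 2.38, 1.86 and 2.19, and Tfap2b had 0.24, 0.37 and 0.91 against 1.61, -0.39, 1.66, 1.45 and 1.53. Without animal 23 the log2 fold changes were -0.34 for Ptgds, -0.35 for Tbx18 and Slc22a6, -0.32 for Slc6a20a, -0.25 for Zic1 and -0.52 for Alx4, while Aox3 kept -0.84, Lyve1 -0.76, Tfap2b -0.60 and Stra6 -0.46. How much meninges was taken with each cortex is not recorded in the labels, and its part in the results was not tested.

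Retinoid and xenobiotic metabolism genes shared members with that list, Aox3 and Stra6 among them. Of 32 genes 7 were listed, 6 lower and 1 higher, all with a limma p under 0.05, at a median of -0.39. Gstm1, a glutathione transferase, had 6.97, 6.93 and 6.97 against 7.21, 7.08, 7.03, 7.17 and 7.27 (-0.20), with no overlap on 3215 reads per library on average. The flavin monooxygenase gene Fmo1 (-0.39 ± 0.16) and the sulphotransferase gene Sult1a1 (-0.34 ± 0.12) had groups that overlapped. Cyp2s1, given above, was the higher member.

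The listed signalling genes of the BMP, TGF-beta and Wnt families were all lower. Of 49 genes 6 were listed, all 6 were lower with a limma p under 0.05 and 3 had groups that did not overlap, at a median of -0.36. Of the ligands, Bmp4 had 1.70 and 1.67 in animals 6 and 28 and less in animal 23, against 2.30, 1.59, 2.09, 2.24 and 2.27 (-0.47 ± 0.16). Bmp2 had 1.64 and 1.84 in animals 6 and 28 and more in animal 23 (recovered mean 1.83 ± 0.18, SD, n = 3), against 2.58, 2.58, 2.32, 1.89 and 2.19 (-0.49 ± 0.17). A single non-recovered animal met the recovered range in each, animal 19 for Bmp4 and animal 21 for Bmp2. Of the Wnt receptors, Fzd1 had 3.35, 3.20 and 3.62 against 3.72, 3.68, 3.62, 3.75 and 3.90 (-0.34 ± 0.10), so that animals 28 and 20 nearly met. Fzd2 (-0.28 ± 0.12) overlapped, and its value was -0.13 without animal 23. Of the intracellular members, Smad3, a transducer of TGF-beta, had 5.98, 6.01 and 6.15 against 6.24, 6.45, 6.40, 6.17 and 6.16 (-0.24 ± 0.088), with no overlap. The other was Ankrd6, given above, the only member of the list with a limma adjusted p under 0.05. The average deviation over the 6 genes was -0.32 to -0.13 in recovered and 0.09 to 0.19 in non-recovered libraries, with animal 28 nearest to the other group. Bmp4 also stood on the oligodendrocyte list, of which it was the only listed gene of 18.

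**Figure D5:**
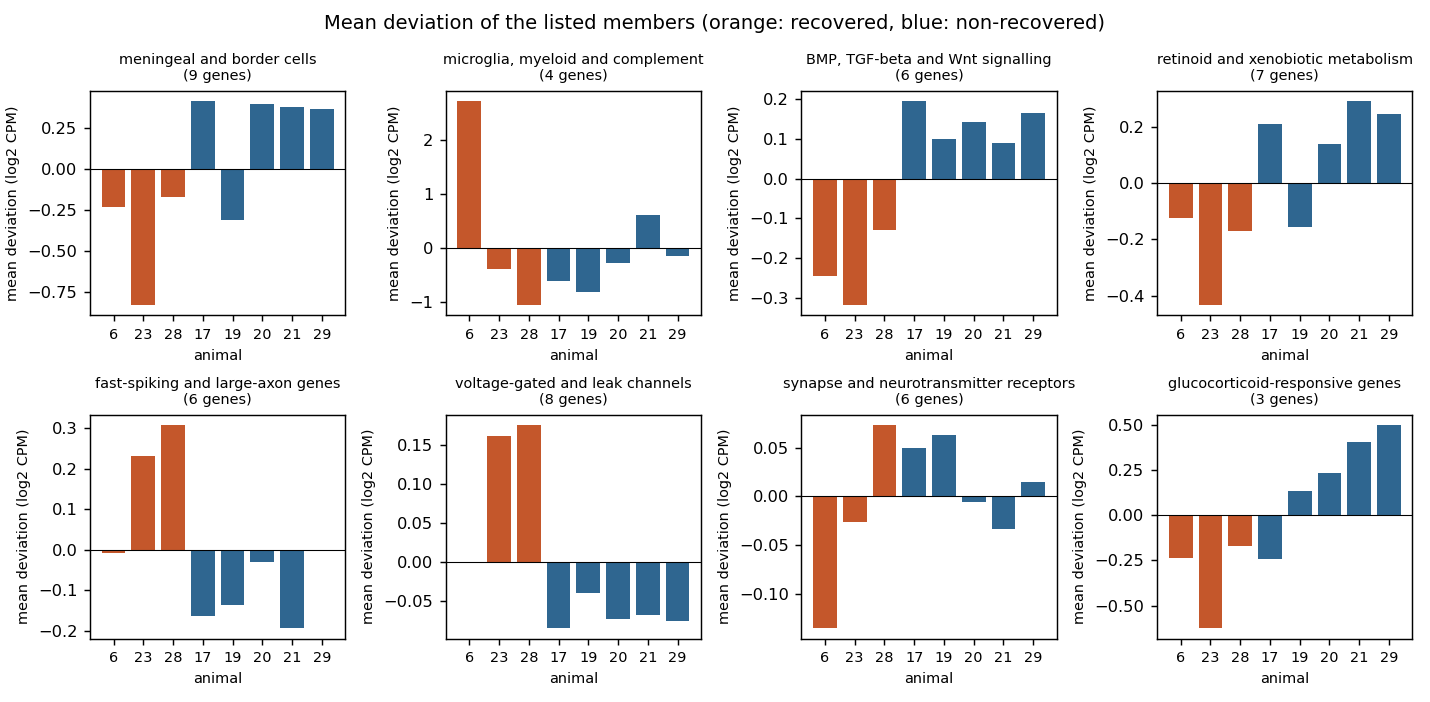
Mean deviation of each library from the mean of the 8 libraries (log2 CPM, vertical; bars start at 0) over the listed members of 8 gene lists, by animal (orange recovered, blue non-recovered); panels have different axes. The bar of animal 6 stands alone at 2.72 for myeloid genes, animal 23 is lowest at -0.83 for meningeal genes, and for BMP, TGF-beta and Wnt genes all recovered bars are below 0 and all non-recovered bars above it.

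The listed genes of fast-spiking interneurons and thick axons were all higher. These neurons fire at high rates through fast sodium and potassium channels, and neurofilaments fill large-calibre axons. Of 18 genes 6 were listed, all 6 were higher and 5 had a limma p under 0.05, at a median of 0.27, and only Nefh had groups that did not overlap. Nefh, the heavy neurofilament chain, had 6.83, 6.93 and 6.94 against 6.59, 6.61, 6.57, 6.43 and 6.77 (0.31 ± 0.078, adjusted p = 0.0532). Syt2, a fast calcium sensor of release, had 6.85, 7.02 and 7.31 against 6.78, 6.51, 6.96, 6.50 and 6.77 (0.36 ± 0.14), and the sodium channel gene Scn1a had 7.73, 7.99 and 8.14 against 7.67, 7.62, 7.88, 7.61 and 7.64 (0.27 ± 0.10). In both genes animal 6 lay below animal 20 but above the other non-recovered animals, and only this pair made the groups overlap. The sodium channel subunit Scn4b (0.27 ± 0.12), the potassium channel Kcna1 (0.22 ± 0.085) and the medium neurofilament chain Nefm (0.27 ± 0.12, unadjusted p = 0.0506) completed the list. Animal 28 was the highest library in 5 of the 6 genes, and animal 6 deviated by -0.01 on average, against 0.23 and 0.31 in animals 23 and 28 and -0.19 to -0.004 in non-recovered animals. Without animal 28 the value was 0.17 for Scn1a and 0.23 for Syt2. Of 22 inhibitory interneuron genes 2 were listed, both of GABA handling, and both were higher as well. They were Gad1, which makes GABA (0.22 ± 0.081), and Slc32a1, which loads it into vesicles (0.15 ± 0.061).

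Voltage-gated channel genes overlapped with this group. Of 8 listed, 7 were higher and 1 lower, all with a limma p under 0.05, and 3 had groups that did not overlap. Kcns3, a modifying potassium channel subunit of fast-spiking cells, had 3.18, 3.39 and 3.24 against 3.08, 2.99, 3.04, 2.73 and 3.06 (0.29 ± 0.094). Its relative Kcns2 stood at 0.26 ± 0.093 and overlapped through animal 21, while Cacna2d2, a calcium channel subunit (0.17), and Kcnab1, a potassium channel beta subunit (0.18), did not overlap. Scn3b, a sodium channel beta subunit, was the lower one, with 5.78, 5.71 and 5.80 against 5.93, 6.10, 5.78, 6.11 and 5.92 (-0.21 ± 0.084).

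Synapse and receptor genes were split. Of 52 genes 6 were listed, 2 higher and 4 lower, and 3 of the 6 had a limma p under 0.05. Shisa9, an AMPA receptor auxiliary protein, had 5.56, 5.60 and 5.63 against 5.88, 5.96, 5.73, 5.82 and 5.76 (-0.24 ± 0.066), with no overlap. The AMPA receptor partners Cacng3 (-0.22 ± 0.092) and Cnih2 (-0.18 ± 0.085) and the postsynaptic scaffold Dlg4 (-0.18 ± 0.083) were lower with overlap. For Cacng3 and Dlg4 animal 6 was the lowest library, and without it the values were -0.11 and -0.09. The muscarinic receptor gene Chrm2 had 4.39, 4.41 and 4.41 against 4.34, 4.16, 4.19, 3.96 and 4.06 (0.26 ± 0.085), again with no overlap. Chrm4 (0.27 ± 0.14) depended on animal 28 and was 0.11 without it.

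Some of the most abundant listed genes are known from neurons. Atp1b1, the beta subunit of the sodium pump, had 10.64, 10.72 and 10.73 against 10.58, 10.62, 10.54, 10.59 and 10.53 (0.13 ± 0.051), on 30009 to 40560 reads, and its groups did not overlap. Lower ones were Agap2, a GTPase activating protein (-0.17 ± 0.056), the dendritic protein gene Ddn (-0.27 ± 0.083; -0.18 without animal 6) and the spine scaffold gene Ppp1r9b (-0.20 ± 0.097; -0.09 without animal 6). Groups did not overlap for Agap2 and Ddn. Calb1, the only listed gene of 21 on the excitatory neuron list, was lower (-0.23 ± 0.097; -0.13 without animal 6), so the labelled tissue could be checked against few neuronal markers.

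Smaller groups gave mixed pictures. Of 20 striatal projection neuron genes 4 were listed and all had a limma p under 0.05. Lrrc10b (-0.60 ± 0.23), the phosphodiesterase gene Pde10a (-0.32 ± 0.13) and the G protein gene Gng7 (-0.14 ± 0.047) were lower, and Scn4b, counted above, was higher. Of these only Gng7 had no overlap, with 6.38, 6.41 and 6.42 against 6.58, 6.53, 6.51, 6.56 and 6.51. Of 19 glucocorticoid-responsive genes 3 were listed and lower, namely the lipid droplet gene Plin4 (-0.72 ± 0.36), the hypoxia factor gene Hif3a (-0.59 ± 0.18) and Sult1a1, with overlap in each. Animal 23 was the lowest library for all 3. Of 28 muscle-type genes 3 were listed: Jsrp1 fell, Myh7, the slow myosin heavy chain, stood at -0.36 ± 0.17 (-0.23 without animal 6), and Mybpc1 was higher.

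Of 45 matrix genes 4 were listed, Cpxm2 and the metalloproteinase inhibitor gene Timp3 lower and Hpse and Col15a1 higher. Timp3 had 6.86, 7.01 and 6.92 against 7.25, 7.07, 7.23, 7.06 and 7.09 (-0.21 ± 0.070), with no overlap. The activity-dependent transcription factor gene Npas4 had 1.86, 1.48 and 2.90 against 3.53, 1.93, 3.02, 3.24 and 3.53 (-0.97 ± 0.44, limma adjusted p = 0.0688), while Scg2, the secretogranin II gene, stood at 0.17 ± 0.068. Animal 19 lay between the recovered libraries for Npas4. The guidance genes Sema3e (0.27 ± 0.12) and Unc5b (0.33 ± 0.15; 0.15 without animal 6) were higher with overlap. Ide, the insulin-degrading enzyme gene, had 6.73, 6.79 and 6.69 against 6.30, 6.33, 6.09, 6.13 and 6.70 (0.42 ± 0.13), and animal 29 alone met the recovered range. Hspb1, a small heat shock protein of reactive astrocytes, was the only listed gene of 30 on the astrocyte list and was lower (-0.58 ± 0.22). The lamin-tail gene Lmntd1 was lower too (-0.68 ± 0.20), and the DNA damage gene Xrra1 was higher (0.46 ± 0.15). Among the 7 solute carriers, the sodium-calcium exchanger Slc8a3 (0.25 ± 0.067) had no overlap. Slc35g2 (0.25 ± 0.086) was higher with overlap, and the creatine transporter Slc16a12 (-0.44 ± 0.13) and the cystine transporter Slc7a11 (-0.32 ± 0.14) were lower with overlap.

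Promoters were read from RefSeq (GRCm38.p6), as the 300 bases from 250 before to 50 after each start, and 198 of the 263 genes had one. The motif of the glucocorticoid receptor, searched on both strands, was in a promoter of 2.13% of higher and 2.88% of lower genes, against 0.537% of all genes with a promoter. This came to 5 genes, none of them on the glucocorticoid list. They are shown because this motif was the most unlike its share over all promoters. The capitals mark the match, and the strand is that of the gene.
Cisd3: accggagtGCACAGAATGTGCggtgcagg
Ctnna3: tccggctaGAACAGGCTGTGCcagctctt
Ipcef1: tctaattaGCACATTTTGTGCctcagctg
St8sia1: cagcctggGCACAAGGTGTGCgggtcccc
Tinagl1: acagtcgcGTACACATTGTCCttaagccg

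These windows lie at chr11:97685586-97685614 (Cisd3, plus strand), chr10:63821070-63821098 (Ctnna3, plus), chr10:6980440-6980468 (Ipcef1, minus), chr6:142964652-142964680 (St8sia1, minus) and chr4:130174929-130174957 (Tinagl1, minus). Cisd3, an iron-sulphur protein of mitochondria, had 3.46, 3.68 and 3.68 against 3.81, 3.91, 3.91, 3.84 and 3.95 (-0.28), with no overlap. It was chosen for its promoter after values were known. Ctnna3 (-0.47) and Tinagl1 (-0.40) were also lower, and Ipcef1 (0.15) and St8sia1 (0.20) higher. The Ctnna3 window lies at a later start inside the gene, whose span begins at base 63430098. A match of letters is no evidence of binding.

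The cAMP element TGACGTCA was in promoters of 4.26% of higher, 1.92% of lower and 2.03% of all genes, among them Scg2 and Ncaph, shown here because both are described above.
Scg2: gctgagccggTGACGTCAgcgtggaatgc
Ncaph: cacgccccagTGACGTCAcgcggcggtta

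The Scg2 window is chr1:79440076-79440104 and the Ncaph window chr2:127133920-127133948, both on the minus strand. The cell cycle homology motif TTTGAA was in 17.0% of higher and 13.5% of lower genes, below the 20.2% of all, and Bub1b held it. The heat shock element was in 0% of higher, 1.92% of lower and 0.662% of all genes, and Hspb1 was not among its carriers.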

How the data were processed

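Poly(A) RNA libraries of 8 iM1 samples were made with a stranded kit from RNA with integrity numbers of 7 to 9, per the labels' protocols. Tools of the authors, as the submitters' processing notes list them without roles, were Trimmomatic 0.38, STAR 2.5.1b, bcl2fastq and edgeR, with the mm10 build; the read counter is not given in the sources used here. The authors deposited log2 CPM values for selected genes. Solving for a prior count of 2 returned whole reads within 0.01 for 100% of 2104 values, and these gave the reads and scaling totals. Whether a total includes a normalization factor cannot be told. Groups came from the titles.

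limma 3.58.1 (R 4.3.3) was fitted to the deposited log2 CPM of all 263 genes. It was also run on simulated reads without an outlying library or a selection of genes, so that run cannot vouch for the p-values here. Few reads make log2 fold changes too small, because of the prior count. The exact permutation test of 3 and 5 animals draws on 56 assignments, so that its smallest p is 0.0179. The limma p-values set a group difference against the spread between these animals, and they make no allowance for the authors' selection of the genes. Named genes were those with an adjusted p under 0.05, the 5 smallest p in each direction, the 8 largest differences without overlap in each direction, the 3 genes farthest from the median of the other 7 in each library, the 5 highest mean CPM and up to 6 members of each of 33 lists. The members and lists were chosen with earlier results of these data known. Values of a few genes that the rule takes in are not reported here. Others are named because a motif or component named them. Of the symbols 262 matched GENCODE M21 (GRCm38), and coordinates are 1-based. Alternatives were log2(CPM + 1), libraries centred on the median of the listed genes, voom on the recovered reads and library weights. Further ones were a mean CPM of 2 or more, adjustment over 21900 protein-coding genes and leaving out each animal. Added after seeing the data was the prefix of the description code (its first 2 parts) as a term.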

Additional observations from a re-analysis of the deposited data

Results flagged for a closer look

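Within the 5 non-recovered animals, 1 library stood apart from the other 4 by Dixon's test for 9 of 92 named genes or measures. The chance share of about 1 in 20 is no yardstick here. Some of these genes, such as Alx4, Tfap2b, Aox3 and Gpnmb, were named because 1 library stood apart for them. Animal 19 was the low one for 4 of them, at 0.53 log2 CPM for Alx4 (others 1.86 to 2.38), 0.73 for Aox3 (1.55 to 1.88), 8.65 for Ptgds (9.62 to 9.71) and -0.39 for Tfap2b (1.45 to 1.66). Animal 21 was high for Gpnmb at 3.19 (others 1.12 to 1.59) and for Plxdc1 at 5.27 (5.10 to 5.15), and low for Kcns3 at 2.73 (2.99 to 3.08). Animal 17 was low for Cnih2 at 6.90 (others 7.15 to 7.24), and animal 20 was high for Scn1a at 7.88 (7.61 to 7.67). The recovered group was not tested in this way, as groups of 3 were left out.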

How the results depend on the processing

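The count of 3 genes at an adjusted p under 0.05 moved with almost every choice: it was 1 with log2(CPM + 1), 33 with median-centred libraries (2 higher, 31 lower), 0 with voom (smallest adjusted p 0.0506; 222 at an unadjusted p under 0.05), 171 with library weights (83 higher, 88 lower; the weight was 0.403 for animal 6 and 1.85 for animal 23) and 0 when adjusted over 21900 protein-coding genes. Leaving out 1 animal gave 0 to 18 genes: 0 without 17, 21 or 23, 1 without 20, 6 without 6, 7 without 29, 13 without 19 and 18 without 28. The count of 196 at an unadjusted p ranged from 158 to 222 over the planned settings that kept all animals. When an animal was left out it ranged from 109 (without 23) to 159 (without 19), with 123 without 6. The 111 genes without overlap became 96 after median-centring (22 higher, 74 lower). Of 1080 recomputed log2 fold changes of 90 named genes, 1074 kept their direction. C3 reversed to -0.58 with library weights and ranged from -1.86 (without 6) to 2.17 when an animal was left out; Gpnmb ranged from -0.39 to 2.29, Itgam from -0.0067 to 0.97, Neat1 from -0.22 to 1.04 and Tnfaip2 from -0.0651 to 1.07. The list medians that reversed without animal 6 ranged from -0.20 to 1.52 (microglia, myeloid and complement) and from -0.0694 to 0.40 (matrix). No paired analysis was possible because the recovered and non-recovered groups are different animals and share no replicate number. A fit with the description-code prefix (its first 2 parts) as a term was chosen after seeing the data: 1 of 5 prefixes holds both groups (animals 28 and 29), 2 residual degrees of freedom remain, and 0 genes passed the adjusted and 31 the unadjusted p (17 higher, 14 lower). The cause of these shifts was not tested. In the main fit, 248 of the 263 genes had a limma adjusted p under 0.1. The adjustment ran over genes that the authors had selected, so nearness to the cut of 0.05 is no evidence of a difference. With 24 genes under 50 reads and 3 recovered animals, small differences of weakly expressed genes were beyond the precision of the data.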
